A study of Mus musculus with 5 samples.

Results

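NELF, the negative elongation factor, was found at 521 sites of the mammary epithelial genome where both its NELF-A and its NELF-B subunit gave a peak and neither RNA polymerase II (RNAPII) nor R-loops did. The sites were chosen by peak overlap alone: they are the NELF-A peaks that overlap a NELF-B peak by 1 bp or more and overlap no RNAPII peak and no DRIP peak, and they are 521 of the 10782 NELF-A peaks. DRIP-seq is the assay for R-loops: genomic DNA is captured with an antibody that recognises RNA-DNA hybrids. All lists come from epithelial cells freshly isolated from mammary glands, thoracic and inguinal, of virgin mice 6 to 8 weeks old; the strain is labelled as mixed and no genotype or treatment is given. Inguinal lymph nodes had been taken out, and the cells were used as a population, so a site can belong to any cell type present. RNAPII, NELF-A and NELF-B were profiled by ChIP-seq of sonicated chromatin and R-loops by DRIP-seq of digested DNA. Both NELF libraries were made from 0.2 ng of DNA with 18 PCR cycles. RNAPII had 1 ng and 15 cycles, and DRIP 15 cycles with no amount given. The rule asks for NELF peaks and for no RNAPII or DRIP peak. The part of this difference in the choice of sites cannot be told apart and was not tested. Of the 5 samples of the series, 4 had a peak list used here, and DRIP-seq after RNase H treatment was not analysed here. Each target had 1 list and no replicate list, although for RNAPII and DRIP the sample title names 2 libraries. Intervals therefore cover counting error over peaks alone. Peaks do not stand in for replicates, so no p-value is given. Sequencing depth is unknown from these files.

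NELF is a complex of several subunits that binds RNAPII soon after initiation and holds it in a paused state, together with the factor DSIF. NELF-A is the subunit known to contact the polymerase, and NELF-B, also called COBRA1, is a core subunit known to bind the breast cancer susceptibility protein BRCA1. Pausing ends when the kinase P-TEFb phosphorylates the complex and NELF leaves the polymerase. R-loops, hybrids of nascent RNA with its template DNA, are known to form behind transcribing polymerase. NELF is therefore mostly described on RNAPII, and the sites described here are those where the lists place both subunits away from it. The absence of an RNAPII or DRIP peak is not the absence of either target. No RNAPII peak in the list scored below 51.8 per 250 bp and no DRIP peak below 18.8, in the authors' own score, so weaker signal would not appear as a peak. Positions are given in mm9. The lists carry no gene names, and no annotation or genome of that build was used here, so genes and sequences at these sites are not given.

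Sites with both subunits but without RNAPII or DRIP made up a small part of all NELF sites. Over the whole NELF-A list, 32.9% of peaks overlapped NELF-B and 44.3% overlapped neither RNAPII nor DRIP. Of the 3547 NELF-A peaks with NELF-B, 521 lacked both RNAPII and DRIP, or 14.7% (95% Wilson interval 13.6 to 15.9%). Of the 4775 NELF-A peaks without RNAPII or DRIP, NELF-B was present on 10.9% (10.1 to 11.8%), and the other 4254 carried NELF-A alone. For comparison, NELF-B was present on 47.8% (46.3 to 49.3%) of the NELF-A peaks with RNAPII and without DRIP and on 61.1% (58.5 to 63.7%) of those with both. On the 169 NELF-A peaks with DRIP and without RNAPII it was present on 34.9% (28.1 to 42.4%). These shares are what the choice of sites rests on and are given as a description.

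The NELF-A peaks at these sites were of middling size for the NELF-A list. Their NELF-A score, a whole number per peak with no stated unit, ran from 9, the lowest score in the list, to 172. The median was 25 and the quartiles were 18 and 32, against a median of 24 over all NELF-A peaks. Peaks with NELF-A alone had a median score of 15, and those with NELF-B and RNAPII but no DRIP had 45. The 810 peaks with all 4 targets had a median of 68. Of the 521 sites, 52.0% (47.7 to 56.3%) scored above the median of the whole list, against 16.2% (15.1 to 17.3%) of peaks with NELF-A alone and 91.7% (90.5 to 92.8%) of the peaks with NELF-B and RNAPII. In the upper quartile of the NELF-A list lay 8.25% of the 521 sites and 58.7% of the peaks with NELF-B and RNAPII. The score of the sites thus lay between both groups.

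**Figure D1:**
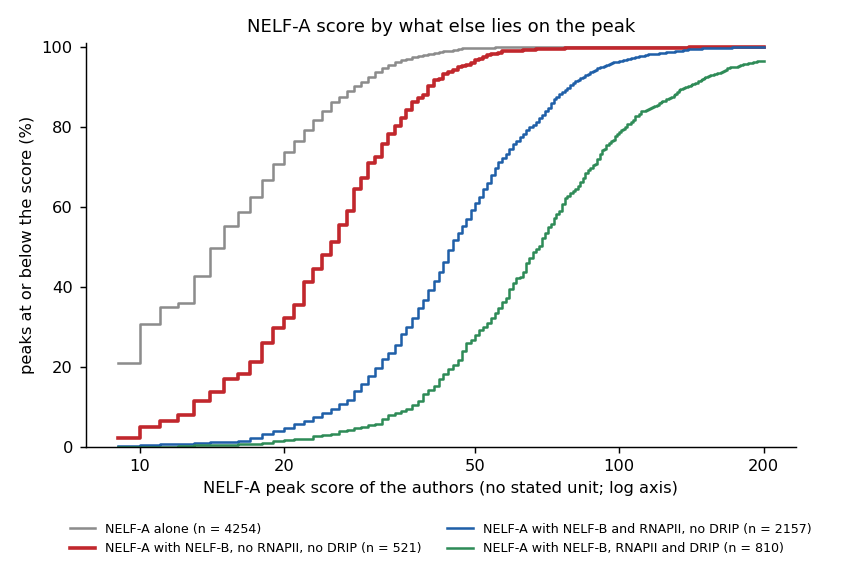
Share of NELF-A peaks (vertical axis, percent) at or below each NELF-A score (horizontal axis, log scale, authors' score), for 4 groups of NELF-A peaks. The line of the 521 sites with NELF-B and without RNAPII or DRIP (median 25) runs between that of NELF-A alone (median 15) and that of NELF-A with NELF-B and RNAPII (median 45).

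The same order was found between peaks of equal width. The 521 NELF-A peaks were 250 to 2000 bp wide, with a median of 1000 bp. Of them, 184 were 1000 bp wide, 154 were 750 bp, 77 were 1250 bp and 65 were 500 bp, and 7 exceeded 1500 bp. At a width of exactly 1000 bp, the median NELF-A score was 28 at the 184 sites, 22 at the 764 peaks with NELF-A alone and 39 at the 733 peaks with NELF-B and RNAPII. At exactly 750 bp the medians were 19, 15 and 29, and at 1250 bp they were 34, 30 and 50. In each of these 3 widths the sites lay above NELF-A alone and below the peaks on RNAPII. Of the sites 1.34% (0.652 to 2.75%) exceeded 1500 bp, against 0.729% (0.514 to 1.03%) of the peaks with NELF-A alone and 10.6% (9.39 to 12.0%) of those with NELF-B and RNAPII.

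NELF-B at these sites was close to the lower limit of its own list. The 521 sites overlapped 523 NELF-B peaks, 13.3% of the 3925 in that list. Exactly 1 NELF-B peak lay on 518 of the sites, 3 sites had 2, and a single NELF-B peak spanned 2 adjoining sites. The NELF-B score, used here for the highest-score partner of each site, had a median of 8 and quartiles of 7 and 10, where 7 is the lowest score in the list. It was exactly 7 at 258 sites (49.5%), and it did not exceed 18 at any site. Among the 2157 peaks with NELF-B and RNAPII but no DRIP, the partner score had a median of 10, was 7 at 21.97% and reached 51, with 10.5% above 18. Partner scores above the upper quartile of the NELF-B list were found at 1.92% (1.05 to 3.50%) of the sites and at 22.8% (21.0 to 24.6%) of the peaks with NELF-B and RNAPII. Most partner peaks were short: 371 of the sites (71.2%) had a NELF-B peak of 500 bp and 130 one of 750 bp. With RNAPII, 42.6% had a NELF-B peak of 500 bp.

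Seen from the NELF-B list, the share of peaks without RNAPII or DRIP fell with NELF-B score. It was 40.9% (38.05 to 43.8%) of the 1125 NELF-B peaks with a score of 7, 29.9% of those with 8, 21.3% of those with 9 and 14.04% of those with 10. It was 12.7% for scores of 11 to 13 and 3.54% for 14 to 18. Of the 512 NELF-B peaks with scores of 19 or more, 1 lacked RNAPII and DRIP, and 494 overlapped RNAPII. NELF-B peaks without RNAPII or DRIP numbered 797 in all, and 69.0% (65.7 to 72.1%) of them overlapped NELF-A, against 99.05% (98.6 to 99.3%) of the 3053 NELF-B peaks with RNAPII. The NELF-B peaks that stood apart from all 3 other targets, 247 in number, scored lower still, with a median of 7 and a highest value of 12.

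The share of NELF-A peaks that carried NELF-B rose with NELF-A score, with and without RNAPII. It is given here for all 4775 NELF-A peaks without RNAPII or DRIP, of which the 521 sites are those with NELF-B. In the NELF-A score class of 15 to 19, NELF-B was present on 8.57% (6.98 to 10.5%) of NELF-A peaks without RNAPII or DRIP and on 17.9% (14.2 to 22.3%) of those with RNAPII and no DRIP. In the class of 30 to 39 the shares were 27.2% (23.1 to 31.8%) and 46.7% (43.6 to 49.9%). In the class of 40 to 59 they were 41.4% (33.6 to 49.7%) and 68.3% (65.6 to 70.9%). At scores of 9 to 14 they were 3.25% and 4.84%, with overlapping intervals. Only 9 peaks without RNAPII or DRIP scored 60 or more, of which 5 carried NELF-B. Since RNAPII and NELF-B overlap define the sites, these shares are a description and nothing is read from their difference. The classes were set after the scores were seen.

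**Figure D2:**
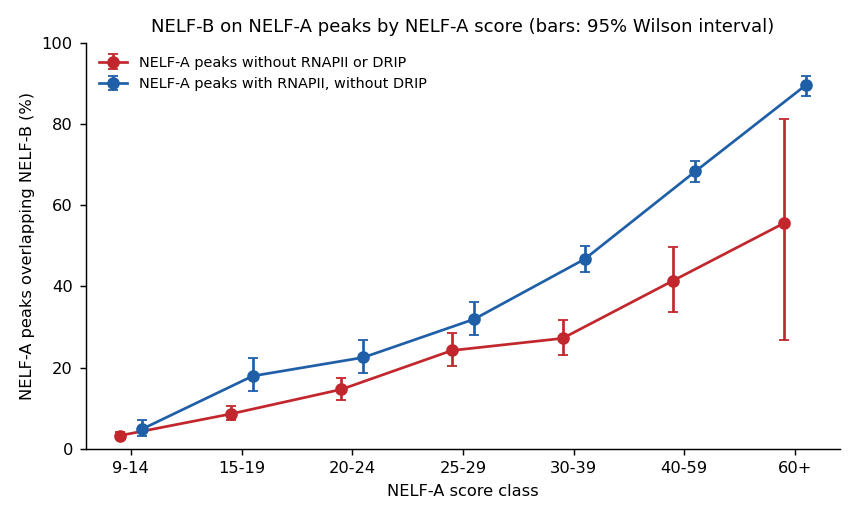
Share of NELF-A peaks that overlapped NELF-B (vertical axis, percent, bars are 95% Wilson intervals) in 7 classes of NELF-A score (horizontal axis), for peaks without RNAPII or DRIP and for peaks with RNAPII and without DRIP. Both shares rose with score, from 3.25% to 41.4% between the classes 9 to 14 and 40 to 59 without RNAPII, and from 4.84% to 68.3% with it.

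At these sites NELF-B rose with NELF-A score up to the class of 40 to 59, while its median stayed at or next to the lowest score of the NELF-B list. Between the NELF-A classes 9 to 14 and 40 to 59, partners at the lowest NELF-B score went from 66.2% to 36.2% of the sites and partners wider than 500 bp from 14.1% to 41.4%. The upper quartile of the partner score went from 8 to 11. The median partner score was 7 where NELF-A scored 15 to 19, and 8 in each class from 20 to 24 up to 40 to 59. On RNAPII the median partner score rose over the same classes from 8 to 11, and it was 15 at NELF-A scores of 60 or more. The 5 sites with NELF-A scores of 60 or more had a median partner score of 7, with 60% at the lowest NELF-B score. Where NELF-A scored 40 to 59, the partner was at the lowest NELF-B score in 36.2% of the 58 sites and in 20.3% of the 813 peaks with RNAPII. Spearman's rho between NELF-A and partner NELF-B scores was 0.206 across the 521 sites, 0.507 across the 2157 peaks with NELF-B and RNAPII and 0.661 across the 810 peaks with all 4 targets. Both scores rise with peak width and the range of partner scores at the 521 sites is narrow, so these coefficients describe the lists and are given without a test. Per base the coefficients were 0.122, 0.366 and 0.588.

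**Figure D3:**
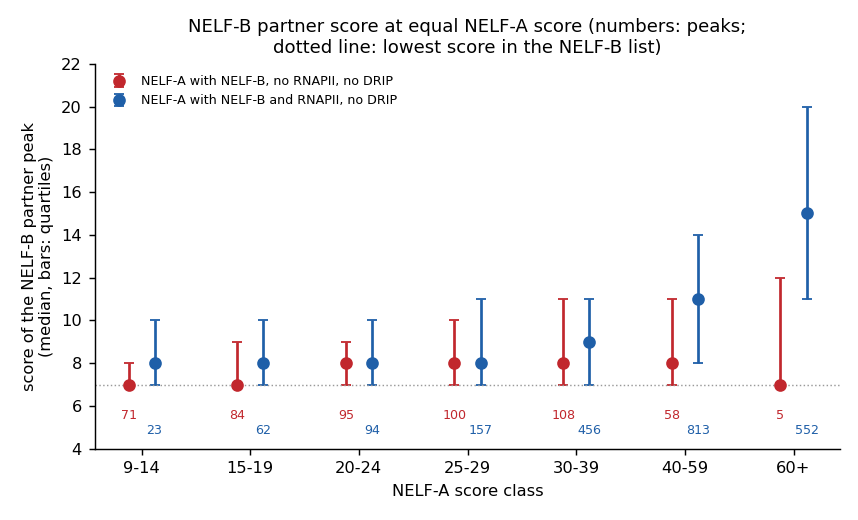
Score of the NELF-B partner peak (vertical axis, median with quartiles as bars) by class of NELF-A score (horizontal axis), for the sites without RNAPII or DRIP and the peaks with RNAPII and no DRIP, with the number of peaks under each point. The medians of the sites stay at 7 or 8 in all 7 classes, while those with RNAPII rise from 8 to 15.

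The centres of both peaks lay close together at most sites. The rule asks for overlap and the peaks are short, so this closeness follows largely from the choice of sites and is a description. The centres of the NELF-A peak and its NELF-B partner lay 125 bp apart or less at 374 sites (71.8%, 67.8 to 75.5%) and 250 bp apart or less at 479 (91.9%). The corresponding shares with RNAPII were 72.7% (70.8 to 74.6%) and 91.5%. All ends in these lists fall on steps of 250 bp, so finer offsets are not resolved. The NELF-B peak lay inside the NELF-A peak at 390 sites, had the same ends at 64, enclosed it at 12 and was staggered at 55. Staggered pairs made up 10.6% (8.20 to 13.5%) of the sites and 5.24% (4.38 to 6.26%) of the peaks with RNAPII. NELF-B shared 50% or more of the shorter peak at 518 of the 521 sites.

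The sites lay about as far from RNAPII peaks and from DRIP peaks as the peaks with NELF-A alone, which also lack both by the rule. The gap to the nearest RNAPII peak had a median of 55.0 kb and quartiles of 22.8 and 143 kb, and it exceeded 100 kb at 172 sites (33.0%, 29.1 to 37.2%). With NELF-A alone the median was 54.8 kb and 33.5% exceeded 100 kb. The gap to the nearest DRIP peak had a median of 64.8 kb, with 208 sites (39.9%) more than 100 kb away, against a median of 65.6 kb and 39.2% with NELF-A alone. More than 100 kb from both lay 116 sites (22.3%) and 21.5% of peaks with NELF-A alone. No RNAPII, DRIP or other NELF-A peak was found within 10 kb of 370 sites (71.0%, 67.0 to 74.8%) and of 64.8% (63.3 to 66.2%) of peaks with NELF-A alone. Scores differed little between sites near RNAPII and far from it. The median NELF-A and NELF-B scores were 22.5 and 7 for the 62 sites within 10 kb and 26 and 8 for the 172 sites beyond 100 kb.

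The surroundings of the sites were set against those of the 4254 peaks with NELF-A alone, which lack RNAPII and DRIP by the same rule and differ by NELF-B, and 3 odds ratios were computed. Over both groups together, 14.2% had an RNAPII peak within 10 kb, 13.8% a DRIP peak and 26.7% another NELF-A peak. An RNAPII peak lay within 10 kb of 62 sites (11.9%) and of 14.5% of peaks with NELF-A alone, an odds ratio of 0.795 (Woolf interval 0.601 to 1.05) that includes no difference. Pooled over 5 classes of NELF-A score it turned to 1.055 (0.785 to 1.42). A DRIP peak lay within 10 kb of 83 sites (15.9%) and of 13.5% of peaks with NELF-A alone, an odds ratio of 1.22 (0.946 to 1.56) that also includes no difference. Pooled over the same classes it was 1.31 (1.003 to 1.70), with a lower bound close to 1. Another NELF-A peak lay within 10 kb of 102 sites (19.6%) and of 27.6% of peaks with NELF-A alone, an odds ratio of 0.640 (0.510 to 0.803). Without regard to score, the sites thus had NELF-A neighbours less often. Pooled over the 5 score classes the ratio was 0.788, with an upper bound of 0.9998. Within each of the 5 classes its interval included 1. With each list limited to its upper 50% of scores the ratio was 1.07 (0.775 to 1.49). With every peak set to 500 bp the ratios were 3.40 for RNAPII, 3.175 for DRIP and 0.963 for other NELF-A peaks, but 449 of the 958 sites found that way overlapped RNAPII or DRIP at the deposited width.

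Close to RNAPII the odds ratio was lower but rests on few sites, with 8 within 1000 bp and 7 at 1 to 3 kb. Within 3 kb of an RNAPII peak lay fewer of the sites than of the peaks with NELF-A alone, an odds ratio of 0.439 (0.259 to 0.745). Pooled over score classes, an alternative chosen after the data were seen, it was 0.724 (0.419 to 1.25). That interval includes both 1 and 0.439. Both ratios come from the same peaks, so the overlap cannot decide the part of score, which was not tested. Among NELF-A peaks without RNAPII or DRIP the lowest scores, 9 and 10, went with an RNAPII neighbour within 10 kb most often. They did so at 5 of the 26 sites (19.2%) and at 19.1% of the 1307 peaks with NELF-A alone. At scores of 26 and more this was 10.6% and 9.31%. Within each of the 5 score classes the interval of the 10 kb ratio for RNAPII included 1.

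**Figure D4:**
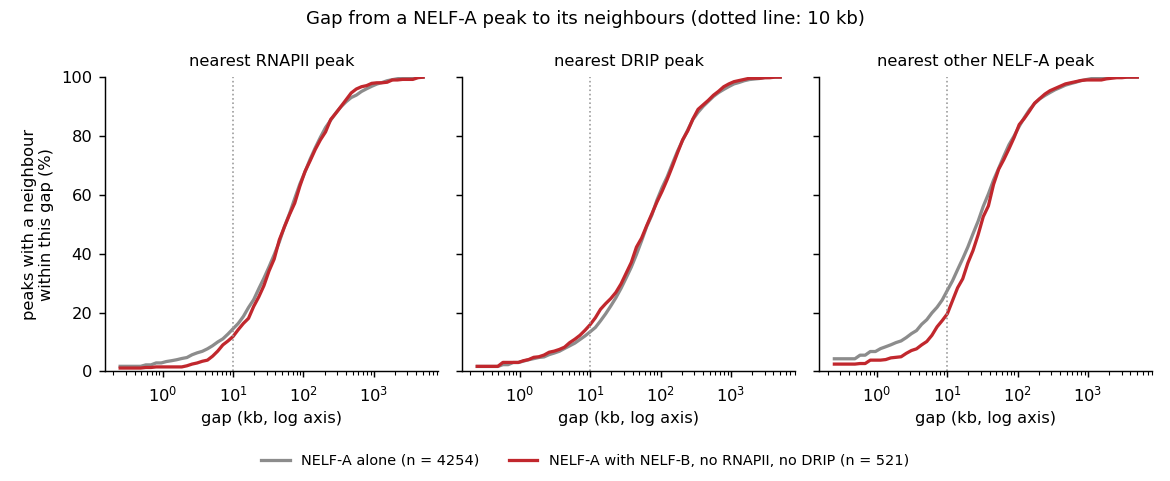
Share of NELF-A peaks (vertical axis, percent) with the nearest RNAPII, DRIP or other NELF-A peak within a given gap (horizontal axis, kb, log scale), for the 521 sites with NELF-B and the 4254 peaks with NELF-A alone. The lines lie close together for RNAPII and DRIP, and at 10 kb 19.6% of the sites and 27.6% of the peaks with NELF-A alone have another NELF-A peak.

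Against the NELF-A peaks with NELF-B and RNAPII but no DRIP, which lack DRIP by the same rule, the sites had DRIP neighbours less often. Both groups differ by RNAPII overlap, which the rule itself uses, so the ratios here are a description. A DRIP peak lay within 10 kb of 15.9% of the sites and of 24.3% (22.6 to 26.2%) of the peaks with RNAPII, an odds ratio of 0.589 (0.457 to 0.760). Pooled over 7 classes of NELF-A score it was 0.601 (0.446 to 0.809). The lower share is not particular to the sites. A DRIP peak lay within 10 kb of 13.5% of peaks with NELF-A alone and of 13.8% of all NELF-A peaks without RNAPII or DRIP. Another NELF-A peak within 10 kb was found at 19.6% and 23.1%, an odds ratio of 0.809 (0.637 to 1.03). Pooled over the 7 score classes it became 0.669 (0.507 to 0.882). A further NELF-B peak, beside the partner, was found within 10 kb at 8.25% and 9.04%, an odds ratio of 0.905 (0.641 to 1.28). Pooled over the 7 score classes it became 0.685 (0.461 to 1.02). Scores can still differ within a class. These 3 comparisons were chosen after the data were seen.

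The close NELF-A neighbours of the sites were of several kinds. Of the 102 sites with another NELF-A peak within 10 kb, the nearest such peak carried NELF-A alone in 40 (39.2%). It lay on RNAPII in 54 (52.9%, 43.3 to 62.3%). It was a further site of the same kind in 7, or 6.86% (3.36 to 13.5%). Among the 1172 peaks with NELF-A alone that had another NELF-A peak within 10 kb, the nearest was NELF-A alone in 54.9% and one of the 521 sites in 2.99% (2.15 to 4.12%). The sites are 4.83% of the NELF-A list. For NELF-A alone, the nearest peak lay on RNAPII without DRIP in 14.8% with NELF-B and in 19.1% without it. For the sites these shares were 24.5% and 21.6%. On RNAPII with DRIP they were 4.27% and 2.65% for NELF-A alone, and 2.94% and 3.92% for the sites. Chaining sites with gaps of at most 10 kb left 511 single sites and 5 pairs. The closest pairs lay on chromosome 2, from 4802251 to 4803250 and from 4803251 to 4803750, where 1 NELF-B peak of score 10 spans the boundary, and on chromosome 5, from 114221251 to 114222000 and from 114222251 to 114223250. The nearest RNAPII peak carried NELF-A itself for 89.3% (86.3 to 91.6%) of the sites and NELF-B for 47.0% (42.8 to 51.3%). For peaks with NELF-A alone these shares were 87.2% and 45.7%, within the intervals of the sites. Over all RNAPII peaks, near a site or not, they were 72.3% and 38.2%, so the higher values were common to both groups of NELF-A peaks.

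Sites were found on all 20 chromosomes that have peaks, from 52 on chromosome 11 and 44 on chromosome 2 down to 5 on the X chromosome and 4 on chromosome 18. The share of NELF-A peaks without RNAPII or DRIP that carried NELF-B ran from 9.47% to 13.8% on 16 of the chromosomes. It was 6.86% (4.32 to 10.7%) on chromosome 9, 6.88% (4.06 to 11.4%) on chromosome 13, 3.88% (1.52 to 9.56%) on chromosome 18 and 4.07% (1.75 to 9.16%) on the X chromosome. The intervals of 3 of the 20 chromosomes, namely 9, 18 and X, lay below the 10.9% of all chromosomes. On the X chromosome NELF-B was also less frequent with RNAPII, at 34.1% (25.2 to 44.3%), whereas on chromosome 18 it was 54.9% (47.0 to 62.6%) there. Over the NELF-A peaks without RNAPII or DRIP, the median NELF-A score was 14 on both chromosome 18 and the X chromosome and 14 to 17 elsewhere, and its part in the lower shares was not tested. These chromosomes were singled out after their values were seen.

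**Figure D5:**
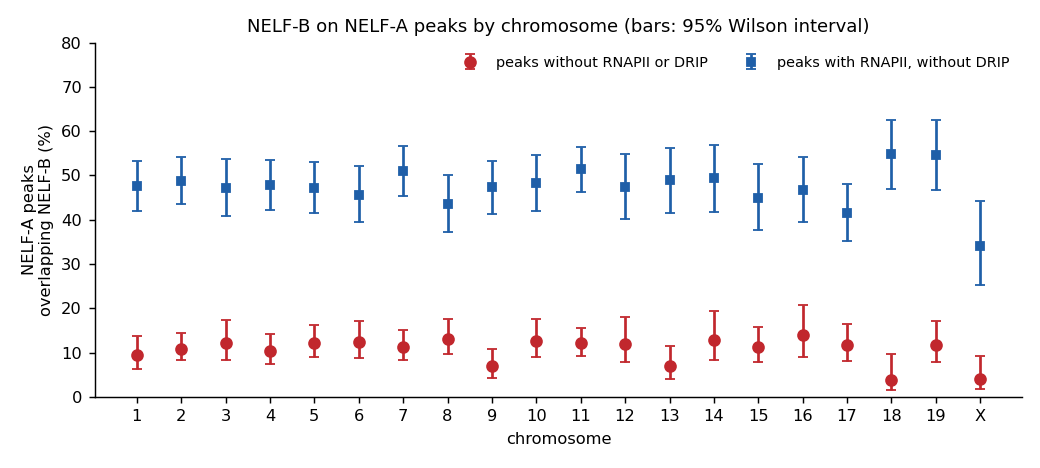
Share of NELF-A peaks that overlapped NELF-B (vertical axis, percent, bars are 95% Wilson intervals) on each chromosome (horizontal axis), for peaks without RNAPII or DRIP and for peaks with RNAPII and without DRIP. The share without RNAPII or DRIP was the lower on all 20 chromosomes, and its lowest values are 3.88% on chromosome 18 and 4.07% on the X chromosome.

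Among single sites, the best sum of ranks by both scores was found on chromosome 1 from 167932501 to 167933750. NELF-A scored 56 there and its NELF-B partner, from 167932501 to 167933250, scored 16. The nearest RNAPII peak was 238 kb away and the nearest DRIP peak 156 kb. A second site of the same kind lay 0.75 kb away, from 167931001 to 167931750, with a NELF-A score of 15 and a NELF-B score of 7. Next came a site on chromosome 19 from 4191501 to 4192750, with scores of 49 and 16, at 39 kb from RNAPII and 38 kb from DRIP. The third, on chromosome 3 from 103082751 to 103084500, had 58 and 13 and lay 106.5 kb from RNAPII. A site on chromosome 17 from 63849001 to 63850250 had 43 and 16, and the nearest RNAPII and DRIP peaks were 362 and 532 kb away. Of the 10 sites with the best sums, 7 lay more than 100 kb from RNAPII, where 33.0% of all sites do. Across the 521 sites neither score followed distance closely, with a Spearman's rho against the gap to RNAPII of 0.094 for NELF-A and 0.071 for NELF-B.

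The 2 sites with the highest NELF-A scores had NELF-B partners of score 12 and 7. A peak of 1500 bp on chromosome 17 from 85489251 to 85490750 had the highest NELF-A score of the sites, 172, which ranked 46 among all NELF-A peaks. Its NELF-B partner, from 85489501 to 85490250, scored 12 and ranked 1281 among all NELF-B peaks. Among the 521 sites that partner score ranked 36, with ties, and the site was number 4 by the sum of both ranks. No RNAPII peak lay within 131 kb of it. The second NELF-A score, 140, belonged to a peak on chromosome 11 from 58751751 to 58753000, whose NELF-B partner had the lowest score of that list, 7. These were the 2 sites in the top 1% of the NELF-A list by score per base, with 28.7 and 28.0 per 250 bp against a median of 6.67 over the 521 sites. No partner was in the top 1% of the NELF-B list by that measure. Whether reads of repeated sequence contribute at these 2 sites was not tested. The highest NELF-B score of a partner, 18, was on chromosome 19 from 3282501 to 3283250, under a NELF-A peak of score 33. That site is named for this value, after it was seen.

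The widest NELF-A peak among the sites, of 2000 bp, lay on chromosome 17 from 53706251 to 53708250 with a NELF-A score of 44. Its NELF-B partner of 500 bp, from 53706001 to 53706500, overlapped it at its lower end only. The next in width were 1750 bp, on chromosome 10 from 90633251 to 90635000 and on chromosome 17 from 56429501 to 56431250, with NELF-B scores of 9 and 7. The site farthest from RNAPII was on chromosome 8 from 55614751 to 55615750, with 4350.8 kb to the nearest RNAPII peak and 3413.8 kb to the nearest other NELF-A peak. It had a NELF-A score of 29 and a NELF-B score of 7. The next 2, on chromosome 7 from 59117001 to 59118000 and on chromosome 14 from 41779751 to 41781000, had NELF-A scores of 28 and 39, and NELF-B scored 7 at both.

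By position few sites lay at the edge of the rule. By NELF-B score many did, since 258 partners (49.5%) had the lowest score of that list. The shortest overlap with NELF-B was 250 bp, at 47 sites, whose median NELF-A and NELF-B scores were 14 and 7. Just outside it, 12 peaks with NELF-A alone touched a NELF-B peak without sharing a base. An RNAPII peak touched 3 of the sites and lay within 1000 bp of 8, and a DRIP peak touched 5 and lay within 1000 bp of 19. The 8 sites near RNAPII had a median NELF-A score of 20 and a median NELF-B score of 9. On the other side of the rule, 10 peaks with NELF-B and RNAPII shared 250 bp or less with RNAPII, with medians of 17 and 8. Of the 523 NELF-B partner peaks, 2 overlapped RNAPII and none overlapped DRIP.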

How the data were processed

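Reads were aligned to mm9, and BWA is the tool named, per the submitters' processing notes. Not given in the sources used here are the peak caller, its threshold, any input control and how the 2 libraries of RNAPII and of DRIP were combined. Each deposited row holds a peak's chromosome, its first and last base and a whole number, called the score, whose unit is not stated. It was used to rank and describe peaks within 1 list. Its values were not compared between lists, whereas ranks were, in the rank correlations and the sums of ranks.

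Peaks counted as overlapping from 1 bp. A gap is the number of bases between 2 peaks. Shares carry 95% Wilson intervals and odds ratios Woolf intervals; odds ratios pooled over classes are Mantel-Haenszel estimates. Interval functions were tested on simulated peaks. Python 3.11.15 with numpy 2.4.6, pandas 2.3.3, scipy 1.17.1 and matplotlib 3.10.9 was used. Sites named are the 10 best by the sum of their ranks by NELF-A and partner NELF-B score, the 3 widest, the 3 farthest from RNAPII, the 3 with most NELF-A score per base, and the largest groups of chained sites. The sites and comparisons were chosen with earlier results of these data known. Gene starts, base composition and motifs, which need an mm9 annotation or genome, were planned and not run.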

Additional observations from a re-analysis of the deposited data

How the results depend on the processing

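Of 57 values computed under other settings, 41 stayed the same. This means a count close to the main count or a share inside the main interval. For an odds ratio it means the same side of 1 and the same answer on whether the interval includes 1. The 57 include the 3 kb ratios pooled over score, chosen after the data were seen. All 6 results stayed the same with NELF-B sharing 50% of the shorter peak and without RNAPII or DRIP within 1000 bp. The same held with partners also free of both, with touching peaks joined and without the X chromosome. These settings gave 496 to 519 sites, so they changed the choice of sites little. Without RNAPII or DRIP within 1000 bp the ratio for RNAPII within 10 kb was 0.963 (0.714 to 1.30). Setting every peak to 500 bp gave 958 sites, 28.2% of NELF-A peaks with NELF-B and 16.5% of those without RNAPII or DRIP, and odds ratios of 3.40 (RNAPII within 10 kb), 3.175 (DRIP) and 0.963 (other NELF-A). Of these 958, 449 overlapped RNAPII or DRIP at the deposited width. Using the upper 50% of each list by score gave 502 sites, 24.6% and 18.8%, and an odds ratio of 1.07 (0.775 to 1.49) for other NELF-A peaks; 397 of the 502 overlapped RNAPII or DRIP in the whole lists, and 105 were among the 521. With near taken as 3 kb the ratio for RNAPII was 0.439, and pooled over score, that for other NELF-A peaks was 0.771 (0.535 to 1.11). With 100 kb the ratios were 1.02, 0.972 and 1.05, and all 3 intervals included 1. Pooled over 5 score classes at 10 kb, the ratio was 1.055 for RNAPII and 1.306 for DRIP. Where no value above shows the cause of a change, the cause was not tested. Leaving out a replicate was not possible with 1 list per target. No paired analysis was possible because RNAPII and DRIP have 1 list each, in which the 2 libraries of the titles cannot be told apart. With scores near the lower limit of the NELF-B list at 49.5% of sites, small changes of the authors' threshold would change which sites count, and unlisted RNAPII cannot be measured here.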
